A study of Mus musculus with 3 samples.

Results

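The 9 genes that set how much retinoic acid a cell makes, destroys, carries and senses were followed through gastrulation of the mouse embryo, in RNA counted from single cells. The genes are Rdh10, Dhrs3, Aldh1a2, Cyp26a1, Crabp1, Crabp2, Rara, Rarb and Rarg, found by symbol among the 32285 genes of the files (9 of 9 found), of which 22964 had at least 1 unique molecular identifier (UMI, 1 counted RNA molecule) in a kept cell. The 3 groups were embryos at embryonic day 7.0 (E7.0), embryos at E7.25 and the posterior part of E7.5 embryos. All were normal, untreated embryos of the ARC mouse strain, dissociated with trypsin. Each group was 1 droplet library on 1 channel, and the number of embryos pooled is not given in the sources used here.

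With 1 library per group there was no replicate and no test. A level is given in CPM, a gene's UMIs scaled to a fixed total of UMIs of the same cells, with an exact Poisson 95% interval, and a ratio as log2 with an exact conditional 95% interval. Both cover counting error only. A gene was measured in a comparison if it reached 10 CPM in at least 1 of the 2 sums, and it was called higher or lower past 2-fold. Stage and library cannot be told apart, nor can the dissected region at E7.5, and fewer cells of a type and less RNA per cell cannot be told apart in a whole library.

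Kept cells had at least 1000 detected genes, with mitochondrial UMIs making up no more than 10%, which left 7941 cells at E7.0, 5194 at E7.25 and 8438 in E7.5 posterior, with 108350108, 47672673 and 87940979 UMIs in that order of stages. The median cell held 8298 to 11295 UMIs. Between 14 and 35 cell barcodes were shared by any 2 libraries. One cluster of 142 deep cells, 141 of them in the E7.25 library and with a median of 18809 UMIs there, was led by the adult haemoglobin genes Hbb-bs and Hba-a1, and no member's call between libraries changed without it. The E7.0 and E7.25 libraries held visceral endoderm-like cells (709 and 852) and trophoblast-like cells (109 and 310), and E7.5 posterior held 393 visceral endoderm-like cells, so levels within cells chosen by other genes are given beside those of whole libraries.

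Retinoic acid is made from vitamin A in 2 steps. RDH10 oxidises retinol to retinaldehyde, DHRS3 reduces retinaldehyde back to retinol, and ALDH1A2 (RALDH2) oxidises retinaldehyde to retinoic acid, so cells with Aldh1a2 RNA are the sources of the signal in the early embryo. CYP26A1 hydroxylates retinoic acid for removal and marks the sinks. CRABP1 and CRABP2 bind retinoic acid in the cytosol, and CRABP2 is known to pass it to the nuclear receptors RARA, RARB and RARG, which act on DNA as partners of the RXR receptors. In the mouse embryo the signal spreads from paraxial and lateral mesoderm, sets the anterior limits of Hox gene expression and is kept out of the caudal end, and Cyp26a1 and Rarb are well known as genes that retinoic acid induces.

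The receptors bind pairs of short hexamer motifs, and the 2 member promoters with such a pair are shown because they belong to the breakdown enzyme and to one receptor. RefSeq promoter windows on GRCm38.p6, 250 bases before to 50 after the start, were found for 7 of the 9 genes, all except Crabp2 and Rdh10. They were searched on both strands for a direct repeat of 2 motifs with 5 bases between them (DR5), 2 bases or 1 base. Each motif could be the common form AGGTCA, the form AGTTCA known from receptor genes, the close form GGTTCA, or the form GGGTCA. The Cyp26a1 and Rarb windows held a DR5 match and no other member window did, and neither match overlapped another. No member window held a repeat with 2 bases or 1 base between. The same search found a DR5 match in 32 of 32851 windows (0.0974%), a repeat with 2 bases between in 0.268% and a repeat with 1 base between in 0.222%. Since a form already known from receptor genes was allowed, and both member matches hold it, the matches describe the windows and test nothing. Capitals mark the DR5 match, and both sequences are printed along the gene's own strand.
Cyp26a1, chr19:37697688-37697807, plus strand: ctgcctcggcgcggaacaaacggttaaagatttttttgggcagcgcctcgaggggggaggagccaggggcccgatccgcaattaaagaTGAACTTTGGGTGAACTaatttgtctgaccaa
Rarb, chr14:16575477-16575596, minus strand: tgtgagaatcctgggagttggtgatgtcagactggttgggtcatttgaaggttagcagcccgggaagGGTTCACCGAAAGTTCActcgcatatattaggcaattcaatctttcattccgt
The Rarb match lies 53 to 37 bases before the start used for its RefSeq window. That start is an internal one, because the gene as annotated on GRCm38 spans 16430839 to 16819156 on the minus strand. The Cyp26a1 match lies 32 to 16 bases before the start and reads as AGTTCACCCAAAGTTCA on the opposite strand.

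The gene for the synthesis enzyme and the gene for the breakdown enzyme ran in opposite directions between the stages. On GRCm38, Aldh1a2 (ENSMUSG00000013584) lies on chromosome 9 from 71215789 to 71296243 on the plus strand. Cyp26a1 (ENSMUSG00000024987) lies on chromosome 19 from 37697798 to 37701536, also on the plus strand. Aldh1a2 stood at 0.305 CPM at E7.0 (0.21 to 0.428, 33 UMIs), 5.01 CPM at E7.25 (4.40 to 5.69, 239 UMIs) and 22.1 CPM at E7.5 posterior (21.1 to 23.1, 1943 UMIs). Its log2 ratio was 4.04 between E7.25 and E7.0 (3.51 to 4.61), although both levels lay under the 10 CPM limit, and 2.14 between E7.5 posterior and E7.25 (1.95 to 2.34). Cyp26a1 stood at 116 CPM at E7.0 (114 to 118, 12540 UMIs), 28.4 CPM at E7.25 (26.9 to 29.96, 1354 UMIs) and 26.4 CPM at E7.5 posterior (25.3 to 27.5, 2320 UMIs). Nearly all of its difference lay between the first pair of stages, with a log2 ratio of -2.03 for E7.25 over E7.0 (-2.11 to -1.95), against -0.11 for E7.5 posterior over E7.25 (-0.20 to -0.01). The second ratio was 0.01 both after scaling with TMM factors and without visceral endoderm-like, parietal endoderm-like and trophoblast-like cells. Across the whole interval, Aldh1a2 was 72.5-fold higher and Cyp26a1 4.39-fold lower at E7.5 posterior than E7.0.

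**Figure D1:**
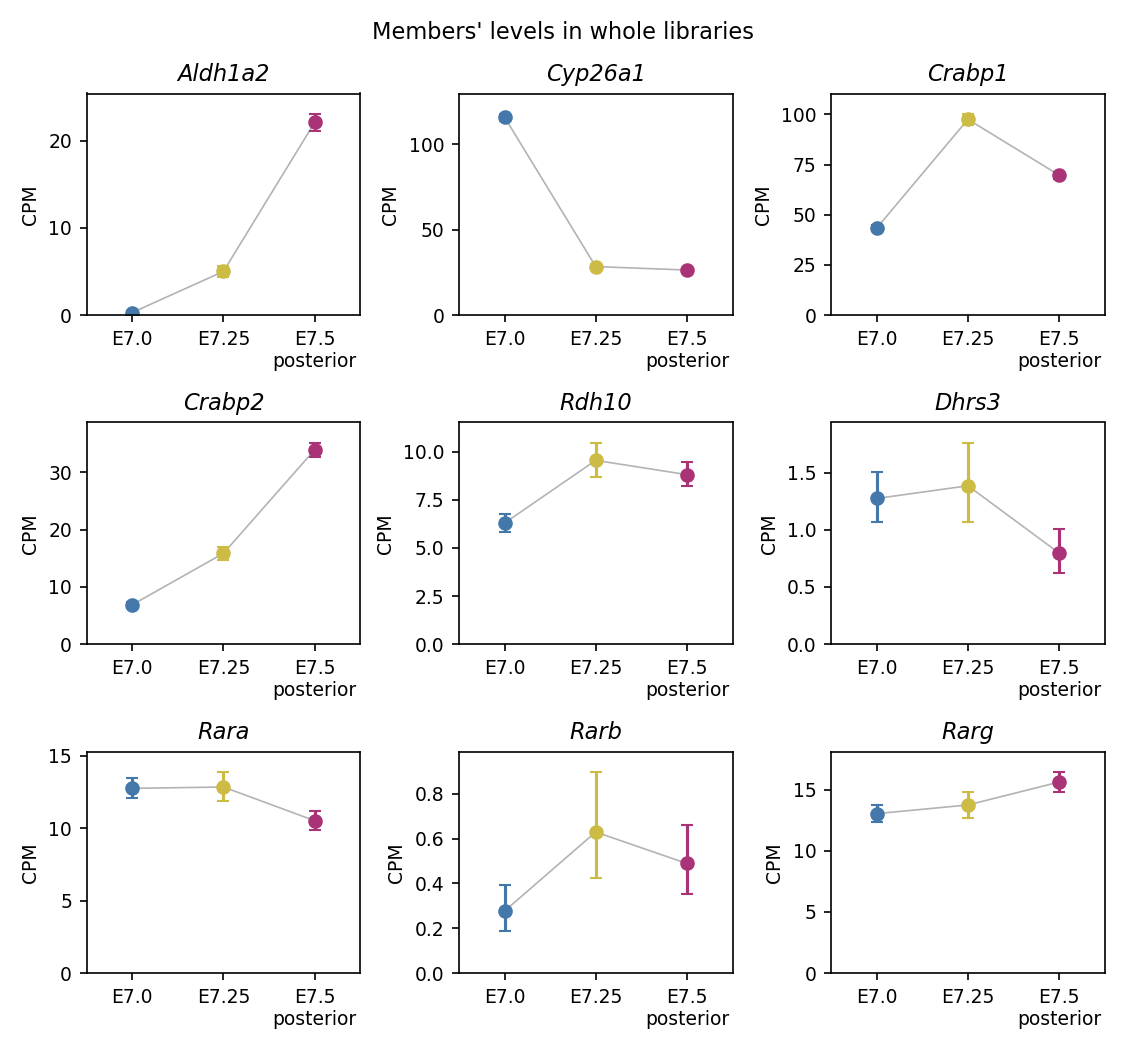
Level of each of the 9 genes (CPM, 1 panel per gene with its own linear axis from 0) in the E7.0, E7.25 and then E7.5 posterior libraries, with exact Poisson 95% intervals as bars. Aldh1a2 is highest at E7.5 posterior (22.1 CPM), Cyp26a1 at E7.0 (116 CPM) and Crabp1 at E7.25 (97.5 CPM).

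The binding protein genes, Crabp2 on chromosome 3 (87948666 to 87953376) and Crabp1 on chromosome 9 (54764748 to 54773110), had their lowest whole-library levels at E7.0. Crabp2 stood at 6.88 CPM at E7.0, 15.9 CPM at E7.25 and 33.9 CPM in E7.5 posterior, with log2 ratios of 1.21 for E7.25 over E7.0 (1.06 to 1.35) and 1.097 for E7.5 posterior over E7.25 (0.98 to 1.21). Without visceral endoderm-like, parietal endoderm-like and trophoblast-like cells the second ratio was 0.89, within 2-fold. Crabp1 peaked at E7.25, at 43.4 CPM at E7.0, 97.5 CPM at E7.25 and 69.7 CPM in E7.5 posterior. Its log2 ratio for E7.25 over E7.0 was 1.17 (1.11 to 1.23), and 0.97 with TMM scaling, which also falls within 2-fold. For E7.5 posterior over E7.0 it was 0.68, within 2-fold.

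No call was made for the other 5 genes between whole libraries. Rara was at 12.8, 12.9 and 10.5 CPM at E7.0, E7.25 and then E7.5 posterior, and Rarg at 13.0, 13.7 and 15.6 CPM, with every ratio of both within 2-fold. The retinol-oxidising Rdh10 was at 6.29, 9.54 and 8.80 CPM at the 3 stages, under the 10 CPM limit. Without visceral endoderm-like, parietal endoderm-like and trophoblast-like cells its log2 ratio was 1.17 for E7.5 posterior over E7.0, against 0.49 with them, and 0.76 for E7.5 posterior over E7.25, against -0.12 with them. The reverse reductase Dhrs3 (1.27, 1.38 and 0.796 CPM) and the receptor Rarb (0.277, 0.629 and 0.489 CPM, 30, 30 and 43 UMIs) were near the floor of the data. Rarb had a log2 ratio of 1.18 for E7.25 over E7.0 (0.40 to 1.96), from 30 UMIs in each library. Together, 2 of 5 measured members were higher and 1 lower at E7.25 than at E7.0, where 4.71% of all measured genes passed 2-fold, 3.32% higher and 1.39% lower. Between E7.5 posterior and E7.25, 2 of 6 were higher and 0 lower, against 4.76% of all measured genes past 2-fold, 1.01% higher and 3.75% lower. Between E7.5 posterior and E7.0, 2 of 6 were higher and 1 lower, against 1.83%, 0.84% higher and 0.988% lower. The median log2 ratio of the measured members was 0.08, 0.04 and 0.47 in these 3 comparisons, beside 0.15, -0.09 and 0.03 over all measured genes.

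Source and sink cells were counted as cells with at least 1 UMI of Aldh1a2 or of Cyp26a1 after every cell was thinned to 5000 UMIs, which left out 614, 509 and 774 shallower cells at E7.0, E7.25 and then E7.5 posterior. The source share was 0.177% at E7.0 (13 of 7327, 0.0945 to 0.303%), 2.07% at E7.25 (97 of 4685, 1.68 to 2.52%) and 7.61% at E7.5 posterior (583 of 7664, 7.02 to 8.22%). Without thinning these shares were 0.416%, 3.08% and 12.0%. Visceral endoderm-like cells, in which little Aldh1a2 is known, gave 0 of 570 cells at E7.0 (upper limit 0.645%), 0.267% at E7.25 and 1.36% in E7.5 posterior. Their median depth of 11816.5, 8708 and 9048 UMIs was close to that of all thinned cells. The E7.0 share of source cells lay below that limit, so 0 of 570 cells cannot decide whether that share exceeded background. No E7.0 cell held more than 1 Aldh1a2 UMI even before thinning. The highest count in a cell was 8 at E7.25 and 13 in E7.5 posterior.

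Sink cells were 34.0% of cells at E7.0 (2488 of 7327, 32.9 to 35.1%), 10.9% at E7.25 (511 of 4685, 10.0 to 11.8%) and 9.26% at E7.5 posterior (710 of 7664, 8.62 to 9.94%). The unthinned shares were 48.0%, 17.3% and 14.5%. Cyp26a1 was low in epiblast-like cells. In the largest such cluster of each library 1.87% of cells at E7.0, 1.37% at E7.25 and 1.66% in E7.5 posterior held a UMI, far under the shares of all cells. An extraembryonic mesoderm-like cluster of E7.5 posterior was as low, at 1.64% (4 of 244).

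Cells with both RNAs were rare at E7.5 posterior. There 18 cells held both, where the product of the 2 shares gives 54.0, a ratio of 0.333 (0.198 to 0.527). Within cells that express Mesp1, a transcription factor of early mesoderm, the ratio was 0.199 (8 cells against 40.1), and 1 of the 18 cells was marked as a predicted doublet. In mesoderm-like clusters it was 0.198 (13 cells against 65.6). Elsewhere it was 1.21 in definitive endoderm-like, 1.92 in epiblast- and streak-like, 1.15 in visceral endoderm-like and 0.971 in node-like cells. Each of these rested on 1 or 2 cells with both, and their intervals included 1. At E7.25, 7 cells held both against 10.6 given by the product, and the interval of that ratio (0.266 to 1.36) includes 1. Without thinning the E7.5 posterior ratio was 0.559.

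The highest source level lay in presomitic mesoderm-like cells of E7.5 posterior. When that library was clustered by itself, a cluster of 418 cells led by Aldh1a2, Tbx6 and Dll1 held Aldh1a2 at 200.4 CPM (187 to 215, 824 UMIs) and 42.4% of all the gene's UMIs. Cyp26a1 stood at 7.05 CPM in the same cells, and 53.8% of them, after thinning, held an Aldh1a2 UMI. The sink of that library was a nascent mesoderm-like cluster of 650 cells led by Tdgf1, Mixl1 and Lefty2, with Cyp26a1 at 120 CPM (884 UMIs, 38.1% of the gene's UMIs) and Aldh1a2 at 10.1 CPM. A second nascent mesoderm-like cluster of 911 cells held both RNAs, at 39.1 CPM of Aldh1a2 and 37.7 CPM of Cyp26a1. Aldh1a2 was left out of the genes used to cluster, as were all members, and leading genes were ranked afterwards. The levels describe the clusters and test nothing.

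Outside mesoderm, Aldh1a2 reached 37.0 CPM in a caudal epiblast-like cluster of 747 cells and 26.9 CPM in a node-like cluster of 208 cells at E7.5 posterior. At E7.25 the highest source level was 24.8 CPM (125 UMIs), in a nascent mesoderm-like cluster of 583 cells led by Mixl1, T and Tbx6, which also held Cyp26a1 at 47.8 CPM. At E7.0 no cluster exceeded 1.09 CPM of Aldh1a2 (6 UMIs).

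**Figure D2:**
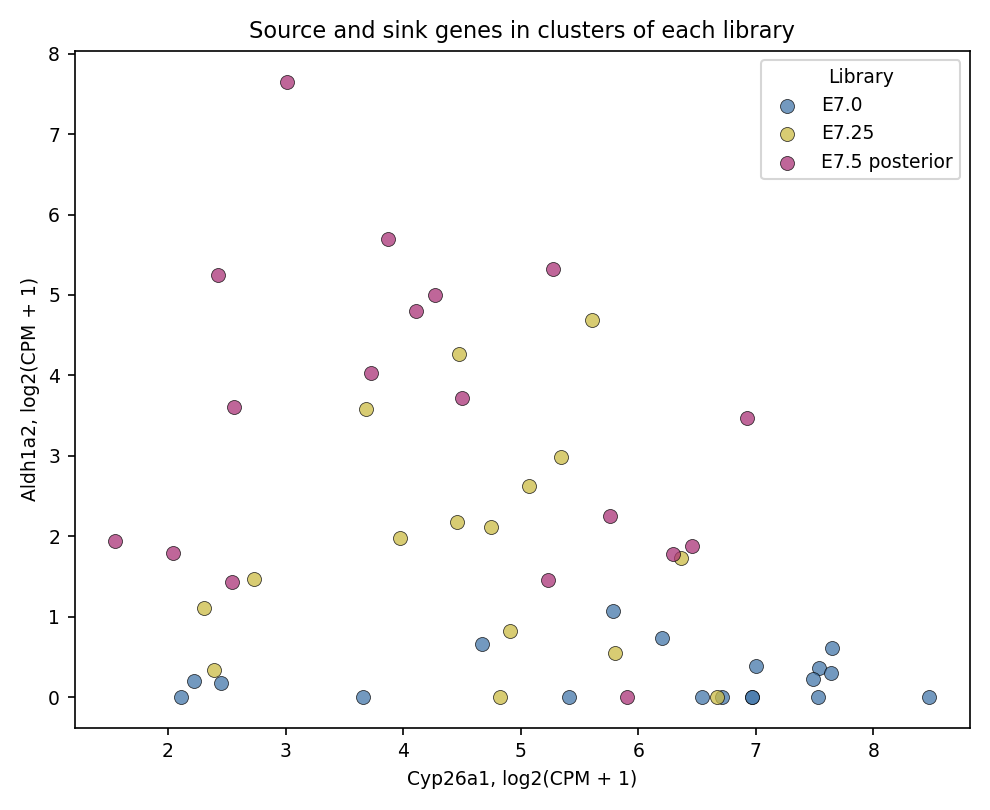
Aldh1a2 against Cyp26a1, both as log2(CPM + 1), in clusters of each library clustered by itself, coloured by library. Clusters of E7.0 lie along the bottom, since Aldh1a2 did not exceed 1.09 CPM there, and the highest point is the presomitic mesoderm-like cluster of E7.5 posterior, with 200.4 CPM of Aldh1a2 and 7.05 CPM of Cyp26a1.

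The sink was broad at E7.0. Cyp26a1 stood at 354 CPM (336 to 373) in a cluster of 256 cells led by Fgfbp1, Krt19 and Pga5, and 72.5% of its thinned cells held a UMI. Nascent mesoderm-like cells (991 cells) held 199.8 CPM, definitive endoderm-like cells (654) 198 CPM, streak-like cells (57) 183 CPM and visceral endoderm-like cells (552) 124 CPM, and the lowest level was 3.32 CPM, in epiblast-like cells. In the joint clustering, 46.4% of the E7.0 sink cells lay in the largest nascent mesoderm-like cluster, 16.9% in a definitive endoderm-like cluster, 10.9% were epiblast- or streak-like, 8.48% were visceral endoderm-like and 7.96% lay in a cluster led by Fgfbp1, Krt19 and Pga5, which had 0 definitive endoderm markers and 1 visceral endoderm marker among its 10 leading genes. At E7.25, 29.2% of sink cells (149 of 511) lay in a cluster led by Crabp1, Hoxb3os and Myl7, and the same number were visceral endoderm-like. At E7.5 posterior, 27.0% lay in a rostral paraxial mesoderm-like cluster, and a nascent mesoderm-like cluster led by Lefty2, Fgf4 and Mesp1, with 2.88% of all thinned cells, held 16.6% of the sink cells. When the libraries were clustered together, Cyp26a1 in that cluster was at 180 CPM in 232 cells of E7.5 posterior (164 to 197), against 211 CPM in 255 cells of E7.0 (194 to 229).

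Source cells lay mainly in 2 clusters of the joint clustering at E7.5 posterior. One, led by Hoxb1, Aldh1a2 and Hes7, held 57.8% of them (337 of 583) and 22.2% of all thinned cells. It had as many markers of caudal epiblast as of presomitic mesoderm among its 10 leading genes, and it took up 724 of the 747 caudal epiblast-like cells found when E7.5 posterior was clustered by itself. The other, rostral paraxial mesoderm-like, held 29.3% (171 of 583) and 20.3% of all thinned cells. At E7.25, 41.2% of source cells lay in a cluster led by Crabp1, Hoxb3os and Myl7, and 28.9% in the one led by Hoxb1, Aldh1a2 and Hes7, which held 3.80% of that library's cells.

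Because the mesoderm-like clusters differed between libraries, mesoderm was also compared in cells chosen by other genes: Tbx6 with Dll1 (presomitic mesoderm), Mesp1 (2 or more UMIs), Meox1 or Tcf15 (paraxial mesoderm), and Hand1 with Foxf1 (lateral and extraembryonic mesoderm). In cells with Tbx6 and Dll1, Aldh1a2 was at 0 UMIs at E7.0 (52 cells, up to 4.39 CPM), 21.2 CPM at E7.25 (60 cells, 11 UMIs, 10.6 to 37.9) and 119 CPM at E7.5 posterior (254 cells, 312 UMIs, 106 to 133). In the same cells Cyp26a1 was at 187 CPM at E7.0 (159 to 218), 73.1 CPM at E7.25 (51.7 to 100.3) and 30.04 CPM at E7.5 posterior (23.8 to 37.4). For each gene no 2 of the 3 intervals overlap, and the opposite directions of the whole libraries were present within cells of this marker pair.

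In Mesp1 cells (2805, 1041 and 2015 cells from E7.0 to E7.5 posterior) Aldh1a2 was at 0.534, 6.36 and 31.4 CPM at E7.0, E7.25 and then E7.5 posterior, and Cyp26a1 at 170, 40.7 and 55.2 CPM. There Cyp26a1 was lower at E7.25 than at E7.0 (log2 -2.07) and, within 2-fold, above E7.25 at E7.5 posterior (0.44, 0.28 to 0.60), unlike its whole-library ratio of -0.11. In Meox1 or Tcf15 cells Aldh1a2 was at 0.247 CPM at E7.0 (1 UMI), 12.8 CPM at E7.25 and 19.9 CPM in E7.5 posterior, and its log2 ratio for E7.25 over E7.0 was 5.70 (3.07 to 11.1). Cyp26a1 there was at 89.8, 29.7 and 27.9 CPM at the 3 stages. In Hand1 and Foxf1 cells Aldh1a2 was at 2.55, 7.97 and 32.4 CPM and Cyp26a1 at 42.7, 8.77 and 9.98 CPM at E7.0, E7.25 and then E7.5 posterior.

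**Figure D3:**
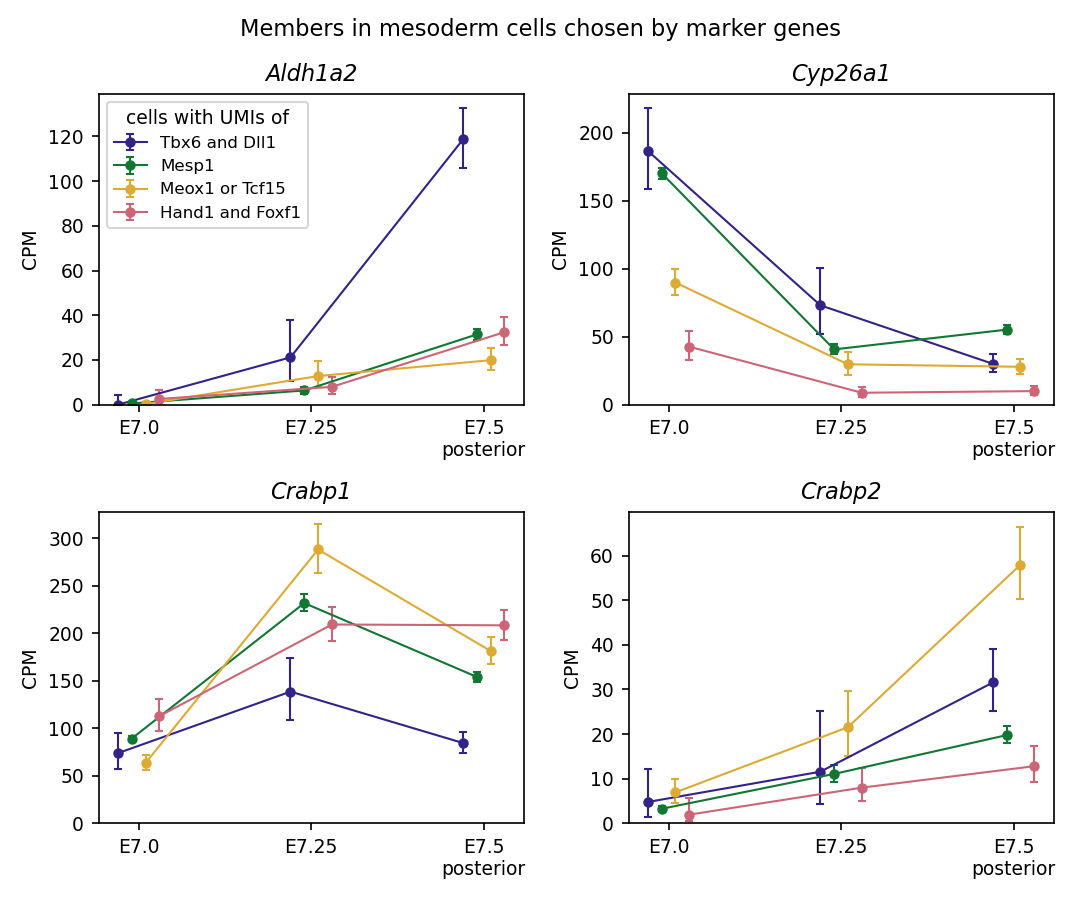
Levels (CPM) of Aldh1a2, Cyp26a1, Crabp1 and Crabp2 at E7.0, E7.25 and then E7.5 posterior within cells chosen by Tbx6 and Dll1, by Mesp1, by Meox1 or Tcf15, and by Hand1 and Foxf1, with exact Poisson 95% intervals as bars. Aldh1a2 is highest at E7.5 posterior in each set of cells, up to 119 CPM in Tbx6 and Dll1 cells, and Cyp26a1 is highest at E7.0 in each, up to 187 CPM.

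In Mesp1 cells 2 of 4 measured members were higher and 1 lower at E7.25 than at E7.0 (4.20% of all measured genes past 2-fold). Between E7.5 posterior and E7.25, 1 of 6 was higher at the later stage (2.57%), and between E7.5 posterior and E7.0, 3 of 7 were higher and 1 lower (1.92%). In Meox1 or Tcf15 cells the same 3 comparisons gave 3 higher and 2 lower of 6 (9.11%), 2 higher of 6 (5.84%) and 3 higher and 1 lower of 6 (4.39%). In Hand1 and Foxf1 cells they gave 1 lower of 4 (9.62%), 1 higher of 5 (4.21%) and 2 higher and 1 lower of 6 (4.99%).

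Sox17 cells, mainly endoderm, had almost no source: Aldh1a2 was at 0, 1 and 16 UMIs at E7.0, E7.25 and then E7.5 posterior in 722, 283 and 352 cells. Cyp26a1 in Sox17 cells was at 198 CPM at E7.0, 68.6 CPM at E7.25 and 66.9 CPM in E7.5 posterior, and its log2 ratio was -1.53 for E7.25 over E7.0. Of 4 measured members, 2 were higher and 1 lower at E7.25 than at E7.0 (10.3% of all measured genes past 2-fold), 1 was lower at E7.5 posterior than E7.25 (6.09%) and 1 lower at E7.5 posterior than E7.0 (3.54%). In 72, 78 and 160 cells with both T and Sox2, a pair found together in caudal progenitors, Aldh1a2 was at 1.77 CPM at E7.0 (2 UMIs), 4.73 CPM at E7.25 (4 UMIs) and 31.4 CPM at E7.5 posterior (62 UMIs), and Cyp26a1 at 95.3, 31.9 and 22.8 CPM. At E7.5 posterior 25% of these cells were marked as predicted doublets, and their part in the level was not tested.

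Epiblast- and streak-like cells of the joint clustering had low levels of both enzyme genes after E7.0. They leave out nearly all the caudal epiblast-like cells described above, which the joint clustering placed with presomitic mesoderm. This class lay in different joint clusters in the 3 libraries, mainly clusters 3 and 8 (the second streak-like) at E7.0, and 5 and 0 in both later libraries. Cyp26a1 was at 30.2 CPM at E7.0, 4.04 CPM at E7.25 and 4.51 CPM in E7.5 posterior in this class, and Aldh1a2 at 0.304, 0.673 and 1.97 CPM. At E7.0 the streak-like cluster of 958 cells held Cyp26a1 at 82.3 CPM, with a UMI in 25.2% of cells. The epiblast-like cluster of 1976 cells held Cyp26a1 at 4.004 CPM. With predicted doublets removed before clustering, the Cyp26a1 log2 ratio for E7.5 posterior over E7.0 moved to -0.89, against -2.75. For E7.25 over E7.0 the Cyp26a1 ratio moved to -1.33, against -2.90. Of the measured members in this class, 1 of 5 was higher and 1 lower at E7.25 than at E7.0 (3.11% of all measured genes past 2-fold). Of 4 measured, 0 passed 2-fold between E7.5 posterior and E7.25 (1.67%), and 1 of 5 was higher and 1 lower between E7.5 posterior and E7.0 (1.65%).

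**Figure D4:**
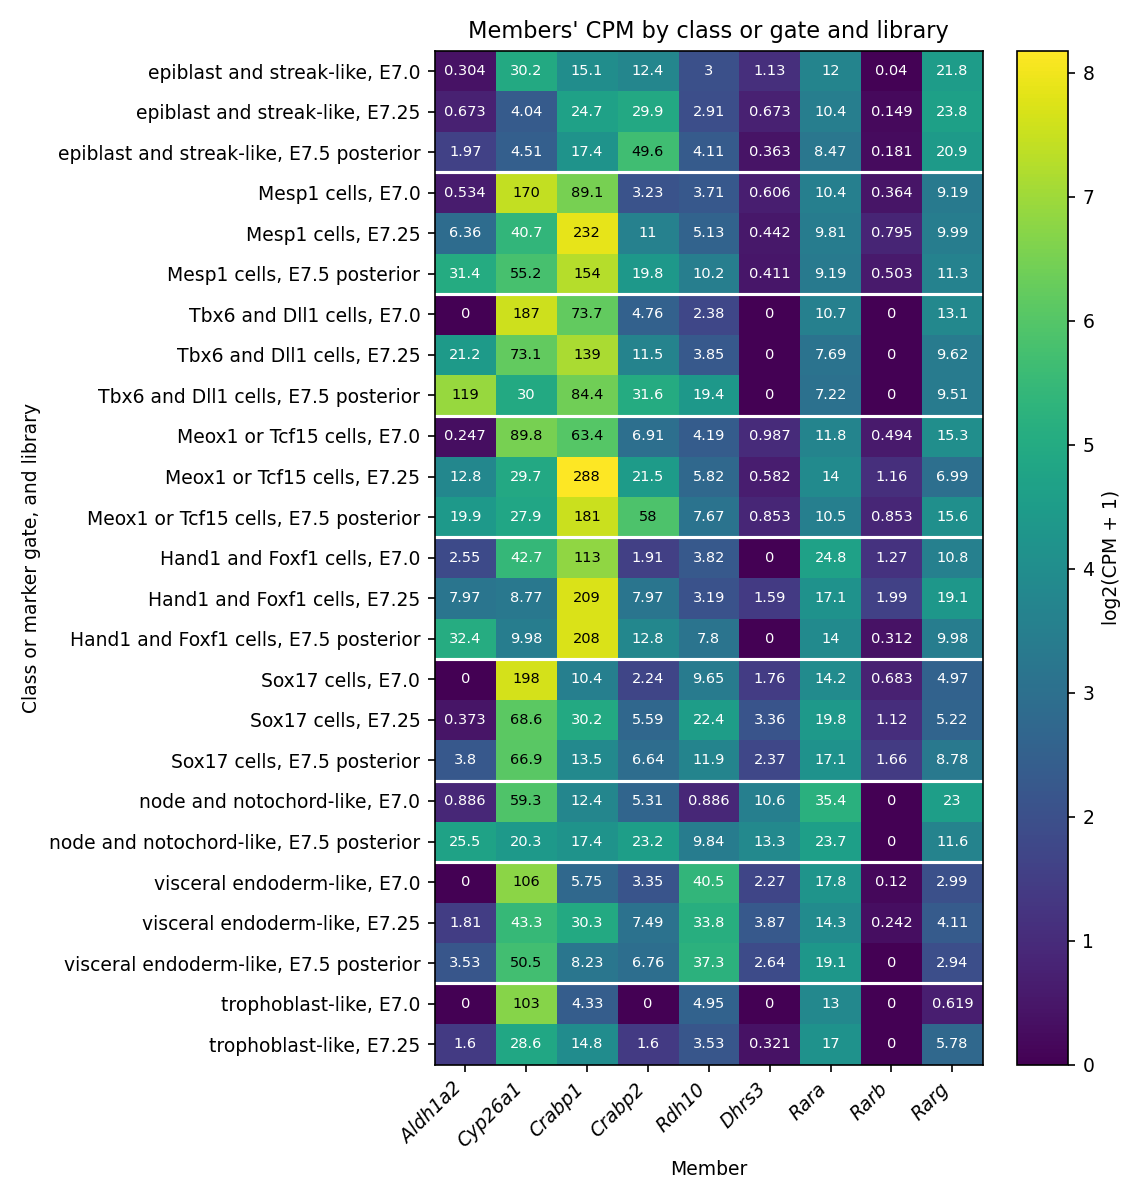
Level of each of the 9 genes by class of cells and library, with CPM printed in each cell and log2(CPM + 1) as the colour. Rdh10 is highest in visceral endoderm-like cells (33.8 to 40.5 CPM) and Rarg in epiblast- and streak-like cells. At E7.5 posterior Crabp2 is higher in Meox1 or Tcf15 cells than in epiblast- and streak-like cells.

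Most Crabp2 RNA lay in the epiblast and streak. In epiblast- and streak-like cells it was at 12.4, 29.9 and 49.6 CPM at E7.0, E7.25 and then E7.5 posterior, and these cells held 76.6%, 52.9% and 55.0% of its UMIs. The log2 ratio was 1.27 for E7.25 over E7.0 (1.08 to 1.45) and 1.999 for E7.5 posterior over E7.0 (1.86 to 2.14). It was higher in mesoderm as well. In Meox1 or Tcf15 cells it was at 6.91, 21.5 and 58.0 CPM at the 3 stages, and in Mesp1 cells at 3.23, 11.1 and 19.8 CPM.

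Crabp1 RNA lay largely in mesoderm. When each library was clustered by itself, its highest levels lay in rostral paraxial mesoderm-like clusters. They were 405 CPM in 560 cells at E7.25 and 297 CPM in 721 cells at E7.5 posterior. In the joint clustering the cluster of that name held 0.747% of thinned E7.25 cells, so the name depended on the clustering. The genes most like Crabp1 across clusters included Myl7 (Pearson's r 0.91), a listed cardiac mesoderm marker. They also included Foxf1 (0.84), a listed marker of lateral and extraembryonic mesoderm. Neither was a listed paraxial marker, so the name is uncertain. Epiblast- and streak-like cells held 15.1, 24.7 and 17.5 CPM at E7.0, E7.25 and then E7.5 posterior. In Meox1 or Tcf15 cells Crabp1 was at 63.4 CPM at E7.0, 288 CPM at E7.25 and 181 CPM in E7.5 posterior, and in Mesp1 cells at 89.1, 232 and 154 CPM, so the peak at E7.25 was present within both sets. In Hand1 and Foxf1 cells it was at 113 CPM at E7.0, 209 CPM at E7.25 and 208 CPM in E7.5 posterior.

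Rdh10, which supplies retinaldehyde, was highest in visceral endoderm-like cells, at 40.5 CPM at E7.0, 33.8 CPM at E7.25 and 37.3 CPM in E7.5 posterior. These cells held 49.6%, 61.5% and 16.4% of its UMIs at the 3 stages. In mesoderm it was higher at the last stage: Mesp1 cells held 3.71, 5.13 and 10.2 CPM at E7.0, E7.25 and then E7.5 posterior, and its log2 ratio for E7.5 posterior over E7.0 was 1.46 (1.16 to 1.77). The presomitic mesoderm-like cluster with the most Aldh1a2 also held Rdh10 at 27.7 CPM (22.9 to 33.3, 114 UMIs), against 8.80 CPM in its whole library. In Tbx6 and Dll1 cells Rdh10 was at 2 UMIs at E7.0, 2 UMIs at E7.25 and 51 UMIs in E7.5 posterior (19.4 CPM).

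Visceral endoderm-like cells were also a lasting sink. Cyp26a1 was at 106 CPM at E7.0, 43.3 CPM at E7.25 and 50.5 CPM in E7.5 posterior, while Aldh1a2 was at 0, 1.81 and 3.53 CPM. The Cyp26a1 log2 ratio was -1.29 for E7.25 over E7.0 (-1.47 to -1.11) and 0.22 for E7.5 posterior over E7.25. Crabp1 was at 5.75, 30.3 and 8.23 CPM in these cells, and its log2 ratio for E7.5 posterior over E7.25 was -1.88, or -0.30 with predicted doublets removed before clustering. In this class 1 of 4 measured members was higher and 1 lower at E7.25 than at E7.0 (3.97% of all measured genes past 2-fold), 1 of 4 lower at E7.5 posterior than E7.25 (3.12%) and 1 of 3 lower at E7.5 posterior than E7.0 (1.12%). These cells lay mainly in joint clusters 10 and 18 at E7.0 and at E7.5 posterior, and 9 and 19 at E7.25.

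Dhrs3, which counters Rdh10, was a rare RNA with its highest levels in node-like cells. They held it at 13.3 CPM at E7.5 posterior (23 UMIs in 222 cells, 32.9% of its UMIs) and 10.6 CPM at E7.0 (12 UMIs in 109 cells, 8.70% of its UMIs). When E7.25 was clustered by itself, its node-like cluster of 58 cells held 8 Dhrs3 UMIs, or 24.3 CPM. The node-like cells of the joint clustering held Aldh1a2 at 25.5 CPM (44 UMIs) at E7.5 posterior, against 1 UMI at E7.0. They held Cyp26a1 at 20.3 CPM at E7.5 posterior, against 59.3 CPM at E7.0.

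The receptor genes had other places. Rarg was at 21.9, 23.8 and 20.9 CPM in epiblast- and streak-like cells at E7.0, E7.25 and then E7.5 posterior, and these cells held 71.2%, 48.7% and 50.4% of its UMIs. Mesp1 cells held Rarg at 9.19, 9.99 and 11.3 CPM. Rara was spread over all classes, at 12.0, 10.4 and 8.47 CPM in epiblast- and streak-like cells, and was highest in node-like cells, at 23.7 CPM at E7.5 posterior and 35.4 CPM at E7.0. Rarb did not exceed 4.05 CPM in any cluster of at least 50 cells when the libraries were clustered by themselves, a level of 10 UMIs in definitive endoderm-like cells of E7.5 posterior. Its highest cluster at E7.25 held 5 UMIs (2.88 CPM) and at E7.0 7 UMIs (1.28 CPM). Of the 2 genes whose promoter windows are shown, Cyp26a1 was highest at E7.0 and Rarb was near the floor at every stage (43 UMIs in E7.5 posterior). Whether either followed retinoic acid was not tested.

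Within a library, source cells without Cyp26a1 were set against sink cells without Aldh1a2 (90 against 504 cells at E7.25, 565 against 692 at E7.5 posterior). At E7.0 there were 11 source cells, too few to compare. Median depths were close, at 9398 UMIs in source cells and 9636 UMIs in sink cells of E7.5 posterior. At E7.5 posterior 2 of 5 measured members were higher in source cells and 0 lower, against 4.58% of all measured genes past 2-fold, 1.47% higher and 3.12% lower. Rdh10 was at 25.1 CPM in source cells and 8.64 CPM in sink cells (log2 1.54, 1.11 to 1.98), and Crabp2 at 35.5 CPM in source cells and 13.1 CPM in sink cells (1.44, 1.09 to 1.80). At E7.25 2 of 5 were higher and 0 lower (12.6% of all measured genes past 2-fold, 3.45% higher and 9.11% lower): Crabp1, at 263 CPM in source cells and 101 CPM in sink cells (log2 1.38, 1.15 to 1.61), and Rarg, at 12.5 CPM in source cells and 5.23 CPM in sink cells (1.25, 0.09 to 2.32, from 11 UMIs in source cells and 26 UMIs in sink cells). Rara did not differ past 2-fold at either stage (log2 -0.04 at E7.25, and -0.05 at the later stage). The same cells were also compared within the clusters classed as mesoderm-like, which include the one led by Hoxb1 and its caudal epiblast-like cells. There 2 of 5 members were higher and 0 lower at E7.5 posterior, against 2.35% of all measured genes past 2-fold (1.59% higher and 0.76% lower). At E7.25 2 of 5 were higher and 0 lower, against 9.79% (5.42% higher and 4.37% lower). Of the response genes taken up next, 6 of 9 were higher there at each stage.

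Most measured genes known to respond to retinoic acid were higher in source cells. Of 14 listed, 9 were measured at E7.5 posterior, of which 6 were higher and 0 lower, with a median log2 ratio of 1.90 beside -0.00162 over all genes. Cdx1 stood at 35.2 CPM in source cells and 4.71 CPM in sink cells (2.90), Hoxb1 at 293 CPM in source cells and 50.9 CPM in sink cells (2.52), and Hoxb2 at 88.8 CPM in source cells and 16.6 CPM in sink cells (2.42). The other 3 measured, Zfp703 (0.42), Nrip1 (0.02) and Tgif1 (-0.40), lay within 2-fold. Whether any of these differences followed retinoic acid was not tested. At E7.25, 7 of 11 measured were higher, among them Cdx1 (4.86) and Hoxb2 (2.80), and 1 was lower. The median at E7.25 was 1.74, beside -0.04 over all genes. Of all measured genes, 1.47% were higher in source cells and 3.12% lower at E7.5 posterior, and 3.45% and 9.11% at E7.25. In whole libraries the same list gave 2 of 6 higher at E7.25 than at E7.0 (3.32% of all measured genes). It gave 4 of 9 higher and 1 lower at E7.5 posterior than E7.25 (1.01% and 3.75%). For E7.5 posterior over E7.0 it gave 6 of 8 higher (0.84%). Cdx1, for example, was at 14.7 CPM at E7.5 posterior and 1.87 CPM at E7.0.

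Most caudal FGF and WNT genes, which mark the region where the signal is kept low, lay within 2-fold. At E7.5 posterior 3 of 14 measured were higher in source cells and 0 lower: Wnt8a, at 19.9 CPM in source cells and 5.10 CPM in sink cells (1.97), Wnt3a (1.34) and Fgf8, at 78.8 CPM in source cells and 38.9 CPM in sink cells (1.02). At E7.25 2 of 13 were higher, Wnt8a (2.74) and Axin2 (1.15), and 0 lower. Of all measured genes, 1.47% were higher and 3.12% lower at E7.5 posterior, and 3.45% and 9.11% at E7.25. At that stage the count depended on the cells: it was 1 higher and 3 lower within mesoderm-like clusters, and 5 higher with 2 or more UMIs required. The share of all genes past 2-fold was not computed with 2 or more UMIs. At E7.5 posterior 1 was lower within mesoderm-like clusters. Between libraries, Fgf8 had a log2 ratio of -2.74 for E7.25 over E7.0 and 1.54 for E7.5 posterior over E7.25.

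Of the genes of paraxial and lateral mesoderm, 6 of 9 measured at E7.5 posterior were higher in source cells, among them the segmentation gene Hes7, at 99.9 CPM in source cells and 21.5 CPM in sink cells (2.22), the Notch ligand gene Dll1 (1.77), Hand1 (1.60) and Tbx6 (1.51). Tcf15 (0.14) lay within 2-fold, and Mesp1 had the lowest ratio, at 411 CPM in source cells and 766 CPM in sink cells (-0.90). At E7.25 5 of 9 were higher, led by Foxf1 (2.21) and Tbx6 (1.91), and 3 were higher and 1 lower within mesoderm-like clusters. At E7.5 posterior 1 was lower within those clusters. Over all clusters, 1.47% of all measured genes were higher and 3.12% lower at E7.5 posterior, and 3.45% and 9.11% at E7.25. Of the other retinoid genes, 3 of 12 measured were lower in source cells at E7.5 posterior and 0 higher. They were the retinol carrier Rbp4, at 53.9 CPM in source cells and 399 CPM in sink cells (-2.89), Ttr (-2.73) and the retinol uptake receptor gene Stra6 (-1.14). Rbp4 and Ttr are strong in visceral endoderm. Visceral endoderm-like cells made up 9.01% of the sink cells of E7.5 posterior and 29.2% of those of E7.25. Within mesoderm-like clusters 1 retinoid gene, not 3, was lower at each stage. In those clusters 0.76% of all measured genes were lower in the E7.5 posterior library, and 4.37% in the E7.25 library. Whether visceral endoderm-like cells among the sink cells gave the lower Rbp4 and Ttr ratios was not tested.

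**Figure D5:**
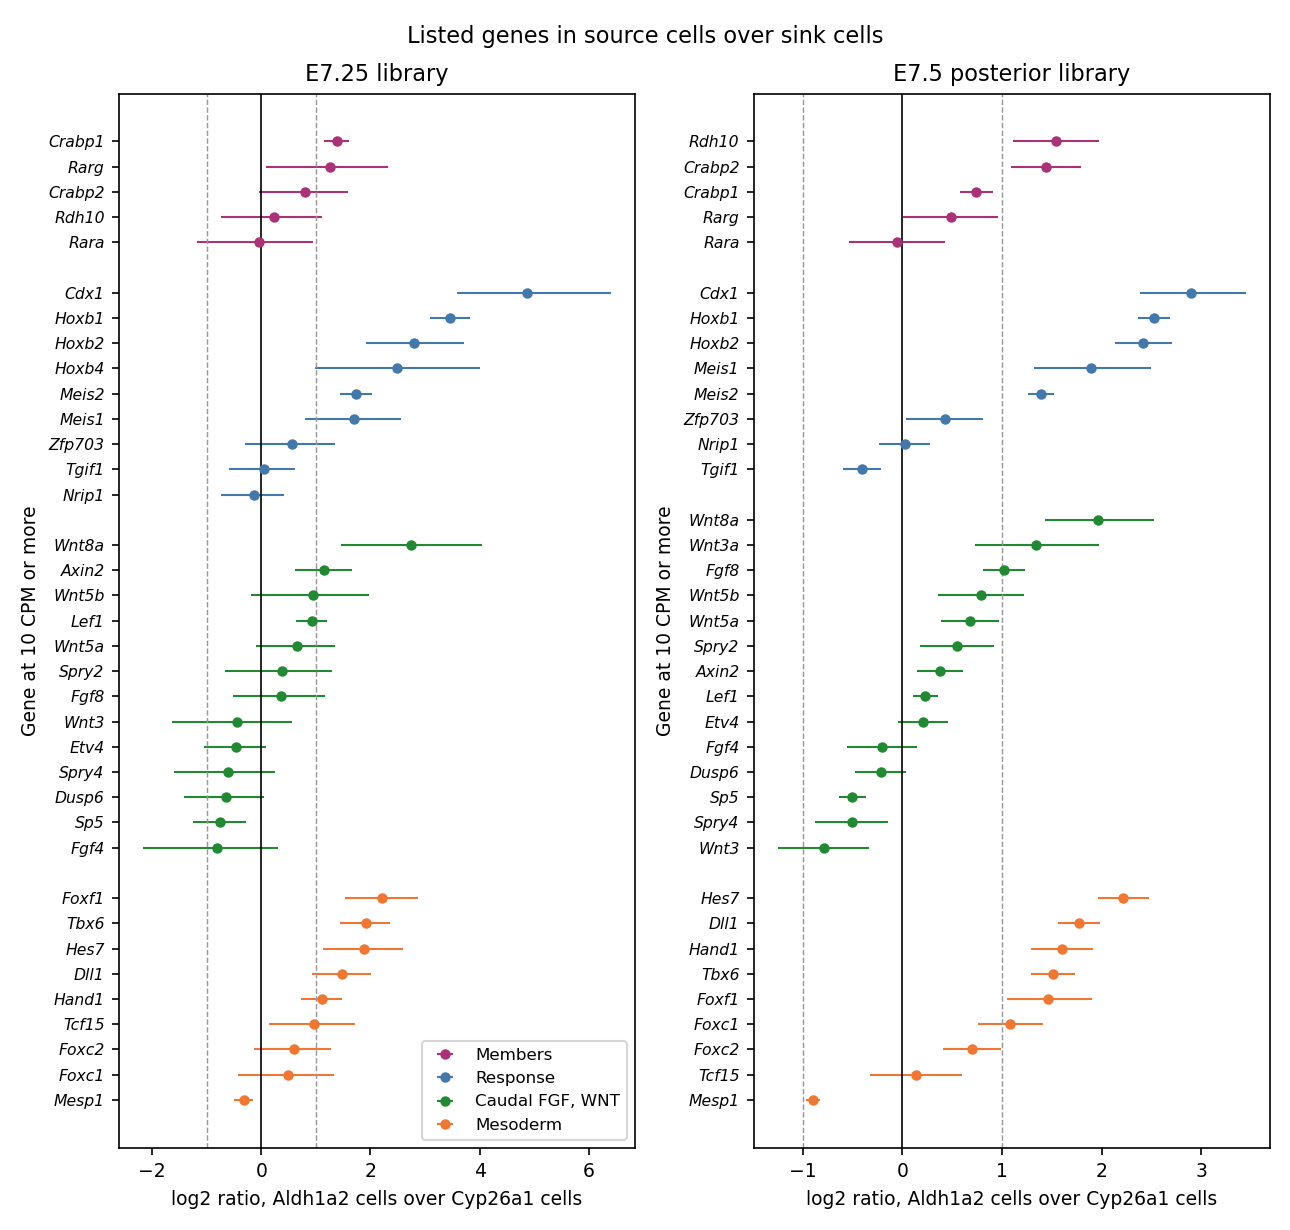
Log2 ratio of the level in Aldh1a2 cells over that in Cyp26a1 cells for listed genes at 10 CPM or more, at E7.25 (left) and E7.5 posterior (right), with 95% counting intervals and dashed lines at 2-fold. Listed genes that are not reported are not drawn. At E7.5 posterior Cdx1 (2.90) and Hoxb1 (2.52) lie farthest toward source cells among the genes drawn, and Mesp1 (-0.90) lies toward sink cells.

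Across 40 sums of clusters with their libraries (15, 13 and 12 from E7.0, E7.25 and then E7.5 posterior) and 6650 genes, the patterns most like Aldh1a2 were those of Cdx1 and Hoxb1 (Pearson's r 0.88 each on log2(CPM + 5)), Car3 (0.83), Hes7 (0.81) and Hotairm1 (0.81). For Cyp26a1 they were Lhx1 (0.78), Fam89a (0.77), Car2 and Spry4 (0.71 each) and Commd3 (0.69). Aldh1a2 and Cyp26a1 had an r of -0.38 with each other, Aldh1a2 and Crabp2 0.56, and Crabp2 and Rarg 0.61. Crabp1 was most like Myl7 (0.91), Hoxb3os (0.86) and Foxf1 (0.84), Crabp2 most like Ptn, Crmp1 and Rgs10 (0.75 each), Rdh10 most like Klhl2 (0.90), and Dhrs3 most like Ttll3, Mapk15 and Rsph4a (0.88 each). Rara was most like Fam76a (0.78) and Rarg most like Eno3 (0.87), and Rarb was too low to enter. The sums share libraries and depth, so these values describe the clusters.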

How the data were processed

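RNA of single cells from 3 libraries, 1 per group, was measured. The deposited counts are UMIs per gene and barcode, whole numbers with no scaling, and per the file headers come from Cell Ranger 6.0.1. The genome build is not given in the sources used here. Identifiers were matched to GENCODE M21 on GRCm38 (32158 of 32285). Cells were filtered as stated above, clustered jointly and per library (2000 variable genes, 30 principal components, 15 neighbours, Leiden resolution 1, scanpy 1.11.5) and named from fixed markers. Predicted doublets (504, 216 and 570 at E7.0, E7.25 and then E7.5 posterior) were marked and kept. TMM factors from edgeR 4.0.16 were 0.938, 1.08 and 0.991 in the same order. The code was tested on simulated data. All 9 members are named, and other genes come from 4 lists, chosen by highest and lowest ratios, or by the 3 to 5 highest correlations among genes of 30 CPM or more. Members and lists were chosen with earlier results of these data known. A few listed genes enter the counts but are not reported here by name.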

Additional observations from a re-analysis of the deposited data

How the results depend on the processing

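No paired analysis was possible because each group is 1 library. The direction of Aldh1a2 and Cyp26a1 against E7.0 held in all 9 settings tried for whole libraries: Aldh1a2 log2 ratios ran from 6.09 to 6.37 and Cyp26a1 from -2.30 to -2.11 for E7.5 posterior over E7.0. Of 327 member ratios under an alternative, 17 changed sign, each 0.258 or less in size as reported, and 0 of the ratios past 2-fold did. Among the 17, for E7.25 over E7.0, Dhrs3 moved to -0.41 without visceral endoderm-like, parietal endoderm-like and trophoblast-like cells and Rarg to -0.12 with TMM scaling. In the order E7.25 over E7.0, E7.5 posterior over E7.25 and E7.5 posterior over E7.0, genes past 2-fold numbered 362, 368 and 135, against 240, 242 and 83 at 20 CPM or more and 3333, 2956 and 2585 with no minimum. Members past 2-fold at E7.25 over E7.0 numbered 5 with no minimum (reported 3), and at E7.5 posterior over E7.25 1 without visceral endoderm-like, parietal endoderm-like and trophoblast-like cells (reported 2). With predicted doublets removed before clustering, members past 2-fold numbered 1 in epiblast- and streak-like cells at E7.5 posterior over E7.0 (reported 2), 1 in visceral endoderm-like cells at E7.25 over E7.0 (reported 2) and 0 at E7.5 posterior over E7.25 (reported 1). With doublets removed, an alternative chosen after seeing the data, Mesp1 cells gave 2 at E7.5 posterior over E7.25 (reported 1). Thinned to 3000 UMIs, source cells were 0.0519%, 1.37% and 5.39% and sink cells 24.2%, 7.68% and 6.29% at E7.0, E7.25 and then E7.5 posterior. Unthinned, they were 0.416%, 3.08% and 12.0%, and 48.0%, 17.3% and 14.5%. The ratio of cells with both to the product was 0 at E7.0 and 0.186 at E7.25 with 3000 UMIs, and 0.559 unthinned at E7.5 posterior. In source against sink cells at E7.25, 2 or more UMIs gave 4 members higher (reported 2) and 5 caudal genes higher (reported 2). Fewer cells remained with 2 or more UMIs required, and the share of all genes past 2-fold was not computed for them at either stage. Mesoderm-like clusters alone gave 0 retinoid genes higher (reported 1) and 1 lower (reported 3), 0 response genes lower (reported 1), 1 caudal gene higher (reported 2) and 3 lower (reported 0), and 3 mesoderm genes higher (reported 5) and 1 lower (reported 0). At E7.5 posterior, 2 or more UMIs gave 1 mesoderm gene lower (reported 0), mesoderm-like clusters alone gave 1 retinoid (reported 3), 1 caudal (reported 0) and 1 mesoderm gene (reported 0) lower, and doublet removal gave 1 response gene lower (reported 0). The causes were not tested. Dhrs3, Rarb and Aldh1a2 at E7.0 are limited by depth.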

Other observations

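Other retinoid genes, in CPM at E7.0, E7.25 and then E7.5 posterior, showed which parts of the pathway were near absent. The other retinaldehyde dehydrogenase genes were scarce, with Aldh1a1 at 2, 2 and 0 UMIs and Aldh1a3 at 1.51, 1.36 and 0.807 CPM. The other breakdown enzyme genes were as low: Cyp26b1 stood at 0.185, 0.189 and 0.387 CPM and Cyp26c1 at 6, 0 and 3 UMIs. Lrat, which stores retinol as esters, had 2, 0 and 4 UMIs.

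The blood carrier genes Rbp4 and Ttr peaked at E7.25. Rbp4 was at 263, 567 and 168 CPM, and Ttr at 413, 851 and 192 CPM, and E7.25 also held the most visceral endoderm-like cells (852 of 5194). Among receptor partners, Rxrb was at 31.3, 32.8 and 27.7 CPM, Rxrg at 8.39, 6.90 and 9.82 CPM and Rxra at 3.97, 5.496 and 4.57 CPM. Of the 10 measured genes of this list, 2 were higher and 0 lower at E7.25 than at E7.0, 0 higher and 2 lower at E7.5 posterior than E7.25, and 0 higher and 1 lower at E7.5 posterior than E7.0. In the same order, 3.32% of all measured genes were higher and 1.39% lower, then 1.01% and 3.75%, then 0.84% and 0.988%.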
